A study of Mus musculus with 6 samples.

Results

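Vnn1 encodes vanin-1, a pantetheinase, and it was examined here with Vnn3 and the genes that make coenzyme A or degrade cysteamine. The 9 genes were Vnn1, Vnn3, Pank1, Pank2, Pank3, Ppcs, Ppcdc, Coasy and Ado. Every probe set whose platform symbol was exactly one of these names was taken, which gave 22 of the 45037 probe sets that are not controls, for 9 of 18193 genes with a probe set of 1 symbol. Vnn1 was chosen by its measured signal, which was higher in all knockout arrays, so its values are a description and no test of it is given. The other 8 genes were chosen for their place in the pathway.

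RNA came from the stria vascularis, a cochlear epithelium rich in capillaries that secretes potassium into the endolymph, of mice at postnatal day 10, before the onset of hearing. Of the 6 arrays, 3 were from mice heterozygous for Slc26a4 (replicates 1, 3 and 5) and 3 from Slc26a4 knockout mice (replicates 2, 4 and 6). Slc26a4 encodes pendrin, which exchanges chloride for bicarbonate and other anions across cell membranes. The controls thus carried 1 working copy, and no wild-type group was used here. The labels name no strain or other allele, and do not say whether an array held 1 animal or a pool. The p-values thus reflect only how far these arrays spread, which may be technical. With 3 arrays a group, the precision of every value is limited.

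Coenzyme A carries acyl groups in fatty acid oxidation, the citric acid cycle and lipid synthesis. Cells build it from pantothenate, vitamin B5. Pantothenate kinases add the first phosphate, PPCS joins cysteine to the product, PPCDC removes a carboxyl group, and the bifunctional COASY adds the adenine nucleotide. Outside the cell, coenzyme A is degraded to pantetheine, which vanins, held at the cell surface or secreted, split into pantothenate and cysteamine. Pantothenate can enter synthesis again, while ADO oxidises cysteamine to hypotaurine, the precursor of taurine. In liver, Vnn1 is a known target of the nuclear receptor PPAR alpha, and mice lacking vanin-1 have been used to study oxidative stress and inflammation.

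The arrays were checked before the genes were compared. Slc26a4 had signals of 220.8, 248.2 and 1006 in heterozygous replicates 1, 3 and 5, and of 75.5, 105.8 and 153.6 in knockout replicates 2, 4 and 6. The knockout arrays were thus all lower, as the labels have it. The log2 difference of -1.69 did not pass (limma adjusted p = 0.371), and it was -1.02 without heterozygous replicate 5. Summed markers of root and outer sulcus cells, a list that includes Slc26a4, were also highest in that array, at 18428 against 9430 to 12893 in the other arrays, and their part in the difference was not tested. The place of the probe set relative to the deletion is not given in the sources used here. Knockout replicate 4 stood apart: its median Pearson correlation with the other arrays over tested probe sets was 0.931, against 0.971 to 0.979 for the others. Summed markers of the strial marginal, intermediate and basal cells were bright on every array and overlapped between genotypes. Of their tested genes, 4 of 7, 7 of 8 and 1 of 4 were lower in knockout samples, against 56.9% of all genes. The median log2 differences were -0.03, -0.25 and 0.03. None of these genes passed the limma adjusted threshold, which 0.00805% of all genes passed.

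Mean Vnn1 signals were 5.62 and 6.01 times higher in the knockout samples on its 2 probe sets. On its brighter probe set, 1447845_s_at, the heterozygous signals were 162.2, 141.3 and 115.6 in replicates 1, 3 and 5, and the knockout signals were 1211, 448.7 and 695.4 in replicates 2, 4 and 6. The lowest knockout array was far above the highest heterozygous array, and the spread was much wider among knockout arrays. The means were 139.7 ± 23.3 and 785.1 ± 389.1 (SD, n = 3 each), a ratio of 5.62, and the difference was 2.26 on the log2(signal + 16) scale, which is used throughout and understates changes of dim probe sets.

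The other Vnn1 probe set, 1418486_at, gave the same picture. Its signals were 87.9, 102.7 and 81.6 in heterozygous replicates 1, 3 and 5, and 799.9, 354.4 and 481.6 in knockout replicates 2, 4 and 6. The means were 90.7 ± 10.8 and 545.3 ± 229.5 (SD, n = 3 each), a ratio of 6.01, and the log2 difference was 2.32. Both probe sets ranked knockout replicate 2 highest, replicate 6 next and replicate 4 lowest, and across the 6 arrays they had a Pearson correlation of 0.993. They read the same RNA, so they are not independent samples. In the heterozygous stria, each Vnn1 value lay above 46.3, the signal below which a probe set's mean kept it out of the tests. That signal is a filter and not a detection limit, and no detection calls were used.

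Among 27022 tested probe sets, the Vnn1 differences ranked 6th (1418486_at) and 8th (1447845_s_at) from the top. Vnn1 was chosen by these same signals, so the ranks are a description. A log2 difference of at least 2 was reached by 15 probe sets, 0.0555% of those tested. Over 17 other ways of treating the data, the difference of the brighter probe set lay between 1.90 and 2.65, lowest without knockout replicate 2 and highest with array weights. Without knockout replicate 4 it was 2.60. In whole tissue, more cells that hold Vnn1 RNA and more of it per cell cannot be told apart.

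**Figure D1:**
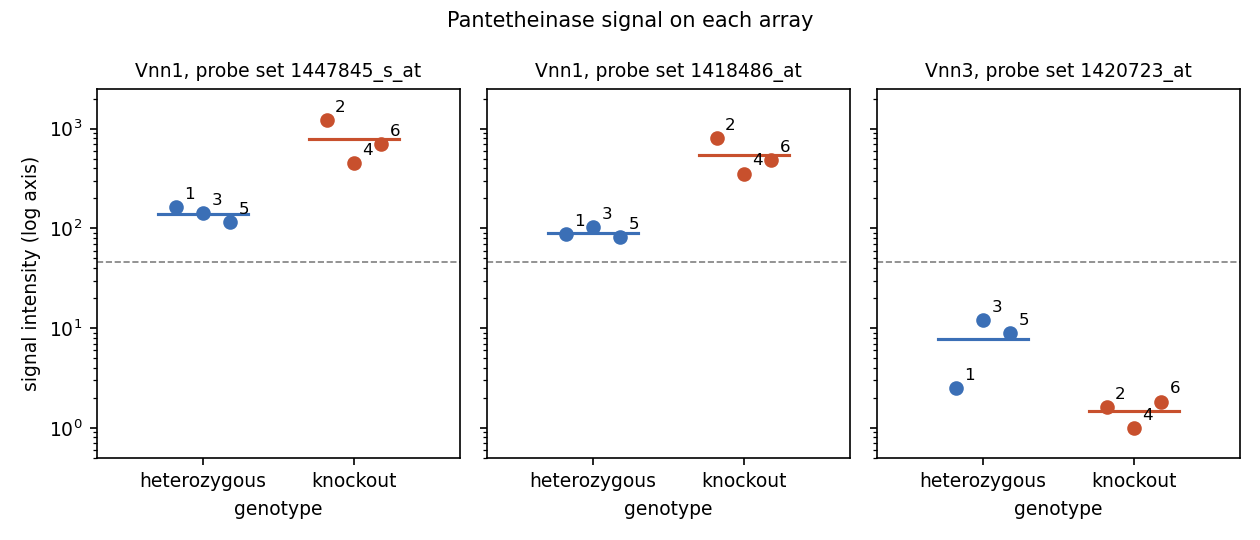
Signal intensity (log axis) of both Vnn1 probe sets and the Vnn3 probe set on each array, by genotype. Points are arrays labelled with their replicate number, horizontal lines are group means, and the dashed line is the signal of 46.3 used as the filter. Both Vnn1 panels show all knockout arrays above all heterozygous arrays, while every Vnn3 value lies below the dashed line.

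Vnn3, the other mouse pantetheinase gene of the array, was near the bottom of the signal range. Its only probe set, 1420723_at, had signals of 2.48, 12 and 8.93 in heterozygous replicates 1, 3 and 5, and of 1.62, 0.989 and 1.83 in knockout replicates 2, 4 and 6. The knockout values all lay below the heterozygous ones, but on every array the probe set was among the dimmest, at most at the 21.5th percentile. It did not pass the filter and was not tested, and a fold between values this close to background is not given. The higher Vnn1 signal was thus not accompanied by a Vnn3 signal above the filter in knockout samples.

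Vnn1 and Vnn3 are next to each other on their chromosome in the RefSeq annotation of GRCm38.p6, and Slc26a4 lies on another chromosome. Of the 8 protein-coding genes on each side of Vnn1, 7 had a probe set and 4 were tested, and these neighbours were looked up after the Vnn1 values were known. All 4 tested neighbours lie on the Vnn3 side, and no gene on the other side was tested. None of the 4 passed limma with Benjamini-Hochberg adjustment, where 0.00805% of all genes by brightest probe set passed. None had an unadjusted limma p under 0.05, against 6.44% of all genes. Counts this near those shares are not read as a result about the neighbours. Slc18b1, a vesicular polyamine transporter beyond Vnn3, had mean signals of 2134 ± 170.5 in the heterozygous and 1817 ± 66.7 in the knockout group (SD, n = 3 each). It differed by -0.23 on the log2 scale. Its groups did not overlap, as was so for 13.1% of all genes by brightest probe set. Eya4, a transcriptional coactivator whose mutation causes deafness in people, had 1778 ± 245.7 and 1613 ± 111.1 (SD, n = 3 each), and differed by -0.13. Taar1, a trace amine receptor and the nearest gene on the other side, did not exceed a signal of 8.43 on any array.

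The coenzyme A synthesis genes and Ado were bright on most of their probe sets, and none passed the test. Of 17 tested probe sets of 7 genes, 0 had a limma adjusted p under 0.05 and 2 had an unadjusted p under 0.05. Over all 27022 tested probe sets, 0.0037% passed the adjusted threshold and 11.7% the unadjusted one. The 17 differences lay between -0.53 and 0.65 with a median of -0.14. The median was -0.0040 over all tested probe sets and -0.03 over those with 1 gene symbol. Of the 17 differences, 10 were negative and 7 positive. Negative differences made up 50.5% of all tested probe sets and 56.9% of all genes by brightest probe set. When arrays were centred on their medians, 16 of the 17 were negative, as were 74.4% of all tested probe sets. The groups did not overlap for 1 of the 17, where 17.1% of all tested probe sets did not overlap. The 95% confidence intervals ran at most from -1.23 to 1.29, and 15 of the 17 stayed within a log2 difference of 1 in either direction. With 3 arrays a group, an exact two-sided permutation test cannot go below p = 0.1.

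**Figure D2:**
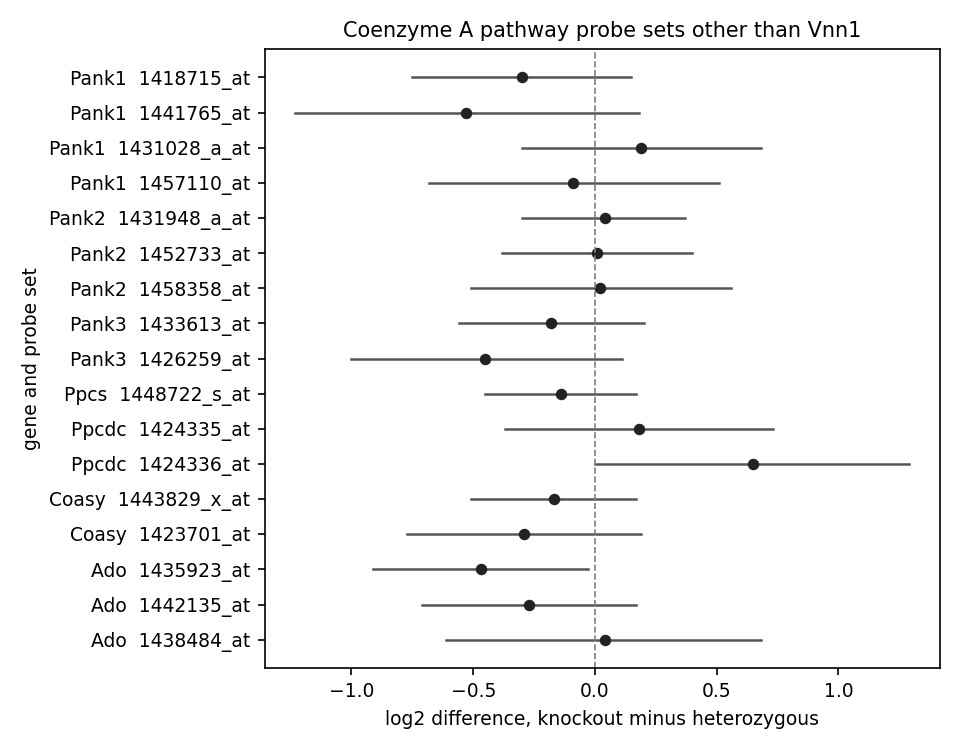
Log2 difference, knockout minus heterozygous, of the 17 tested probe sets of members other than Vnn1, with 95% confidence intervals from the limma fit. All points lie between -0.53 and 0.65, and only the intervals of 1424336_at of Ppcdc and 1435923_at of Ado leave out 0.

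Knockout replicate 4 was the lowest of the 6 arrays for 9 of these 17 probe sets, where 32.6% of all tested probe sets were lowest there. Their median deviation from the mean over arrays was -0.26 in that array, and between 0.02 and 0.10 in the others. Over all tested probe sets the corresponding medians lay between -0.03 and 0.03. Without that array the median difference of the 17 was -0.06, with 0 past the limma adjusted threshold and 0 at an unadjusted p under 0.05. There 13 were negative, against 45.5% of all tested probe sets. Without knockout replicate 6 the median was -0.19, with 0 past the limma adjusted threshold and 4 at an unadjusted p under 0.05. The unadjusted share over all tested probe sets was not computed without these arrays. The unadjusted counts without them are thus not read as a result about the members. In knockout replicate 4, Vnn1 was also the lowest of the knockout arrays.

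**Figure D3:**
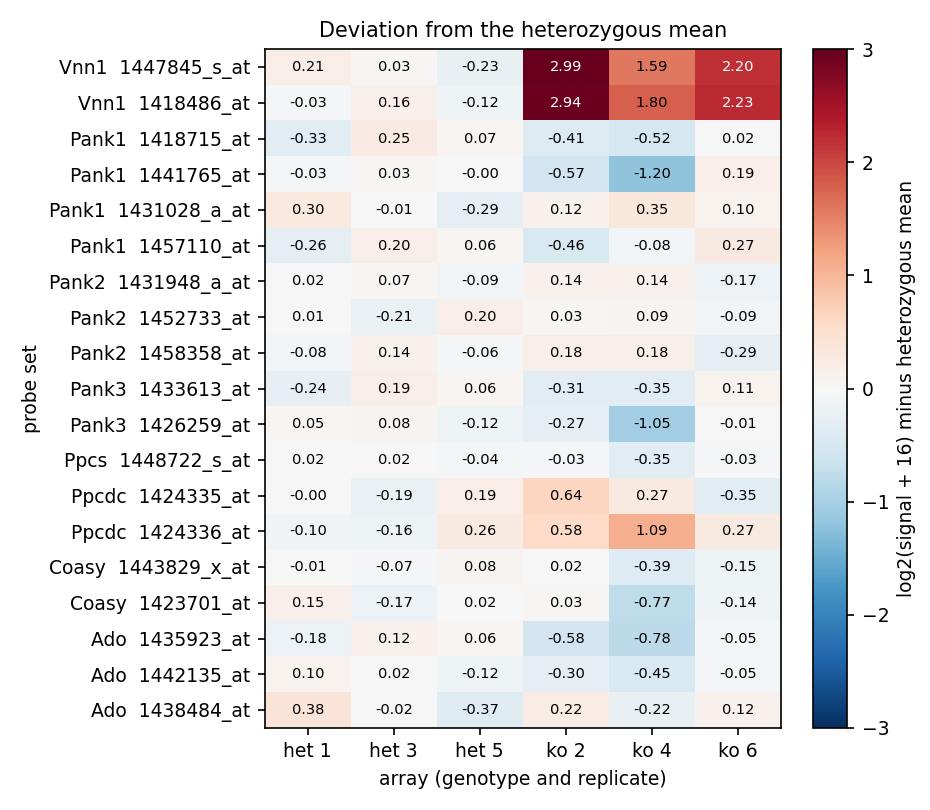
Deviation of each tested member probe set from its heterozygous mean on the log2(signal + 16) scale, for each array (het, heterozygous; ko, knockout; numbers are replicates). Vnn1 deviates by 1.59 to 2.99 in the knockout arrays, and the largest negative cells are in knockout replicate 4, such as -1.20 for 1441765_at of Pank1 and -1.05 for 1426259_at of Pank3.

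The pantothenate kinases catalyse the controlled, first step of the pathway. Pank1 was measured by 4 probe sets, and these went different ways. The brightest, 1418715_at, had signals of 884, 1328 and 1170 in heterozygous replicates 1, 3 and 5 and of 834.8, 772.2 and 1125 in knockout replicates 2, 4 and 6. The groups overlapped, with a log2 difference of -0.30 ± 0.20 (SE, limma adjusted p = 0.6). It was -0.18 without heterozygous replicate 3, -0.19 without knockout replicate 4, -0.47 without heterozygous replicate 1 and -0.46 without knockout replicate 6. On 1441765_at the heterozygous signals were close together at 321.4, 336.5 and 328.5, and the knockout signals were 216.7, 134.1 and 377.5. Knockout replicates 2 and 4 lay below and replicate 6 above all heterozygous arrays. On the log2 scale this was -0.53 ± 0.32 (SE, limma adjusted p = 0.553). It was -0.19 without knockout replicate 4 and -0.88 without knockout replicate 6 (limma adjusted p = 0.148, range 0.148 to 0.939 over its alternatives). The other Pank1 probe sets had 0.19 (1431028_a_at) and -0.09 (1457110_at), the first turning to -0.01 when arrays were centred on their medians. Whether the probe sets read different transcripts of the gene is not given in the sources used here.

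Pank2, a pantothenate kinase whose mutation causes a neurodegenerative disease in people, was nearly level. On 1431948_a_at the signals were 1074, 1113 and 992.4 in heterozygous replicates 1, 3 and 5, and 1165, 1170 and 938.3 in knockout replicates 2, 4 and 6. The knockout range enclosed the heterozygous one. Its log2 difference was 0.04 (95% interval from -0.30 to 0.37, limma adjusted p = 0.945). The other probe sets had 0.01 and 0.02, with intervals from -0.38 to 0.40 and from -0.51 to 0.56. All 3 differences turned negative when arrays were centred on their medians (-0.16, -0.19 and -0.18), so no direction is given for Pank2.

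Pank3, a cytosolic isoform, had lower means in knockout samples on both probe sets without passing the test. The brighter, 1433613_at, had 1509, 2040 and 1865 in heterozygous replicates 1, 3 and 5 and 1440, 1397 and 1940 in knockout replicates 2, 4 and 6. The groups overlapped, and the log2 difference was -0.18 ± 0.17 (SE, limma adjusted p = 0.719). With 1 array left out it lay between -0.33 (without knockout replicate 6) and -0.09 (without heterozygous replicate 3). On 1426259_at the values were 1040, 1060 and 920.2 against 830.1, 476.9 and 994.2. The knockout mean there was pulled down by replicate 4: the difference was -0.45 ± 0.25 (SE, limma adjusted p = 0.515) with it and -0.14 without it.

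Ppcs, the synthetase that joins cysteine to phosphopantothenate, had 1 knockout array below all others. On 1448722_s_at the heterozygous signals were 1509, 1500 and 1443, and the knockout signals were 1450, 1163 and 1448 in replicates 2, 4 and 6. Knockout replicates 2 and 6 lay within the heterozygous range and replicate 4 below it. Its log2 difference was -0.14 ± 0.14 (SE, limma adjusted p = 0.741), and -0.03 without replicate 4.

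Ppcdc, the decarboxylase of the next step, had the largest positive difference after Vnn1, on a dim probe set. On 1424336_at the heterozygous signals were 47.5, 44.7 and 65.7 in replicates 1, 3 and 5, and the knockout signals were 85.9, 128.6 and 65.8 in replicates 2, 4 and 6. The groups did not overlap, though heterozygous replicate 5 and knockout replicate 6 nearly met. The log2 difference was 0.65 ± 0.29 (SE), with an unadjusted p of 0.0499 and a limma adjusted p of 0.428. Without knockout replicate 4 it was 0.42. The brighter Ppcdc probe set, 1424335_at, had 687.7, 603.6 and 786.9 against 1080, 831.4 and 536.1, so knockout arrays lay on both sides of the heterozygous range. Its log2 difference was 0.18 ± 0.25 (SE, limma adjusted p = 0.812), and it turned to -0.04 without knockout replicate 2 and to -0.02 with median centring. A further probe set, 1430813_at, stayed between 21.1 and 30.4 on all arrays and was not tested.

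Coasy, which completes coenzyme A, was measured by a pair of probe sets with overlapping groups. On 1443829_x_at the signals were 1273, 1227 and 1356 in heterozygous replicates 1, 3 and 5, and 1305, 977.7 and 1157 in knockout replicates 2, 4 and 6. On 1423701_at they were 1131, 907.2 and 1033 against 1041, 593 and 923.6. Replicate 4 was again the lowest in both. The log2 differences were -0.17 ± 0.15 and -0.29 ± 0.22 (SE, limma adjusted p = 0.698 and 0.635), and both were -0.06 without replicate 4.

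Ado oxidises cysteamine, the thiol that vanin-1 releases, and also acts on proteins that begin with cysteine. It had the smallest p of the members tested. On its brightest probe set, 1435923_at, the heterozygous signals were 1390, 1720 and 1653 in replicates 1, 3 and 5, and the knockout signals were 1051, 911.8 and 1532 in replicates 2, 4 and 6. Knockout replicates 2 and 4 lay below all heterozygous arrays, and replicate 6 lay among them. The means were 1587 ± 174.6 and 1165 ± 325.1 (SD, n = 3 each). The log2 difference was -0.47 ± 0.20 (SE), with an unadjusted p of 0.0386 and a limma adjusted p of 0.401. It was -0.31 without knockout replicate 4 and -0.68 without knockout replicate 6.

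The next Ado probe set, 1442135_at, had 381.2, 358.2 and 324.3 in heterozygous and 283.9, 254.5 and 341.4 in knockout samples. The order of the knockout arrays was the same as on the brightest probe set, and the groups overlapped. The log2 difference was -0.27 ± 0.20 (SE, limma adjusted p = 0.633). The dim probe set 1438484_at had 0.04 ± 0.29 (SE) and turned in sign with quantile, cyclic loess and median scaling. A further one, 1442133_at, did not exceed 13.8 on any array and was not tested.

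Genes around the pantetheinase reaction did not pass the test either. In 5 lists with 41 genes, 30 genes were tested by their brightest probe set, and 0 had a limma adjusted p under 0.05 (smallest 0.371). Of all 12421 genes so tested, 0.00805% passed. At an unadjusted p under 0.05 there were 2, against 6.44% of all genes, and the groups did not overlap for 3, against 13.1%. The median log2 difference of the 30 was -0.11, against -0.04 over all genes, and 20 were negative, against 56.9%.

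Among 9 genes of coenzyme A transport and turnover, 6 were negative, with a median of -0.18. Dcakd, a protein with a dephospho-coenzyme A kinase domain, had 749.1, 834.2 and 687.7 in heterozygous replicates 1, 3 and 5 and 452.5, 590.1 and 538.9 in knockout replicates 2, 4 and 6. Its groups did not overlap. On the log2 scale Dcakd differed by -0.51 ± 0.17 (SE, unadjusted p = 0.0153, limma adjusted p = 0.371), and it was -0.60 without knockout replicate 4. Slc5a6, the transporter that brings pantothenate and biotin into cells, had 126.4 ± 40.8 and 78.6 ± 29.4 (SD, n = 3 each). Its groups overlapped, and it differed by -0.60 on the log2 scale (limma adjusted p = 0.498). Pank4, a relative of the pantothenate kinases that works as a phosphatase, had 0.32 (limma adjusted p = 0.537). The median of this list was 0.05 without knockout replicate 4 and 0.03 with array weights.

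In cysteine supply and taurine synthesis, 4 of 5 tested genes were negative, with a median of -0.23, and of -0.11 without knockout replicate 4. Cdo1, the cysteine dioxygenase that parallels Ado in making hypotaurine, had 3157 ± 237.3 and 2712 ± 412.9 (SD, n = 3 each) and differed by -0.23 (limma adjusted p = 0.535), and by -0.11 without that array. The taurine transporter Slc6a6 also had -0.23, and Cbs, cystathionine beta-synthase, -0.31. Gadl1, Fmo1 and Slc7a11 were below the filter. Glutathione genes had a median of -0.12 over 5 genes (-0.04 without knockout replicate 4), with -0.29 for Gss and Gclm, which make glutathione and part of its rate-limiting ligase. The third by p was Gclc, the catalytic part of that ligase, with -0.12. The groups did not overlap for Gss, but the nearest arrays were 505.4 and 499.8.

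PPAR alpha and its targets had a median of -0.08 over 8 tested genes, 5 of them negative. Acadm, an acyl-coenzyme A dehydrogenase of fatty acid oxidation, had 3502, 4075 and 3759 in heterozygous replicates 1, 3 and 5 and 3449, 2791 and 3219 in knockout replicates 2, 4 and 6. Its groups did not overlap, with a log2 difference of -0.26 ± 0.11 (SE, unadjusted p = 0.0442, limma adjusted p = 0.416). Pdk4, a kinase that restrains pyruvate dehydrogenase, had 0.30 (limma adjusted p = 0.457) and 0.14 without knockout replicate 4. Plin2, a lipid droplet protein, had -0.28, and Ppara itself 0.11. The nitrilase fold relatives of vanins were close to 0, with -0.05 for Nit1, 0.04 for Nit2 and -0.01 for the biotinidase gene Btd, and each of these turned in sign under some scaling or weighting. The 95% interval of Btd ran from -0.36 to 0.34.

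**Figure D4:**
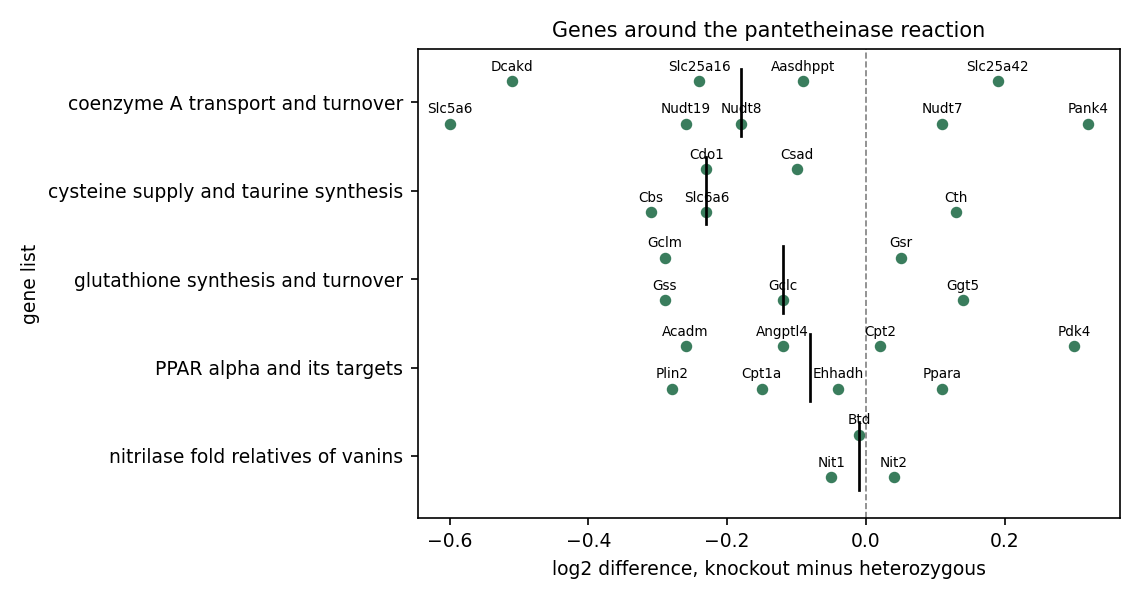
Log2 difference, knockout minus heterozygous, of the 30 tested genes in 5 lists around the pantetheinase reaction. Each point is a gene by its brightest probe set and each vertical bar is the list median, and all points lie between -0.60 and 0.32, with none past the adjusted threshold.

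The genes whose signal followed Vnn1 most closely over the 6 arrays were Scn9a, Tinag, Eprn, Ncmap, Dmgdh and Cyth4. They were ranked by Pearson correlation with 1447845_s_at among 5197 tested probe sets with 1 gene symbol and a log2 range of at least 1, and r lay between 0.971 and 0.995. These points share 6 arrays and the gap between the genotypes, so the values are a description. All 6 genes had every knockout array above every heterozygous array, as the gap requires. Knockout replicate 4 was the lowest knockout array for each, as it was for Vnn1. Ranking by correlation with Vnn1 favours genes with its order of arrays, so this is no separate result.

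Scn9a, a voltage-gated sodium channel, had 17.4, 16.1 and 10.6 in heterozygous replicates 1, 3 and 5 and 192.3, 76.5 and 91.4 in knockout replicates 2, 4 and 6 on 1442809_at (r = 0.995). Its heterozygous values were all below the filter signal, so it passed the filter through its knockout arrays. Tinag, a basement membrane glycoprotein of the kidney tubule, had 132.1 ± 1.7 and 299.3 ± 86.7 (SD, n = 3 each, r = 0.990). Dmgdh, a mitochondrial enzyme of choline breakdown, had 332.3 ± 26.8 and 693.1 ± 85.1 (SD, n = 3 each, r = 0.978). In Scn9a and Tinag the knockout arrays had the order seen for Vnn1, while in Dmgdh replicate 6 (743.2) was level with replicate 2 (741.3). The log2 differences of the remaining genes were 1.08 for Eprn, 0.82 for the myelin protein gene Ncmap and 0.74 for Cyth4, an exchange factor for ARF proteins.

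Markers of other cell types were summed on the same arrays. In 14 marker lists, 70 genes were tested and 0 passed the limma adjusted threshold, against 0.00805% of all genes. This count is thus not read as a result about the cell types. The summed signal did not overlap between genotypes for 2 of the 14, bone and cartilage. Of single genes 13.1% did not overlap, but sums of genes are another measure, and their share was not computed. The bone total was 3238 to 5582 in heterozygous and 6116 to 10531 in knockout samples, with 1 of 8 tested genes negative, against 56.9% of all genes, and a median log2 difference of 1.23. The cartilage total was 10339 to 11538 and 12031 to 15333, with 2 of 5 negative. Among knockout arrays the bone total was highest in replicate 6 and lowest in replicate 2, where Vnn1 was highest.

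Of the 14 totals, only those of macrophages, granulocytes and hair cells had the knockout order of Vnn1, with replicate 2 highest and replicate 4 lowest. They overlapped between genotypes. The share of all probe sets with this order was not computed, so it is a description. The macrophage total was 8130 to 11238 in heterozygous and 8869 to 11500 in knockout samples, with 2 of 10 tested genes negative and a median log2 difference of 0.06. The granulocyte total was 985.4 to 3545 and 308.9 to 1914, with 4 of 4 negative and a median of -0.71, and the hair cell list, with 1 tested gene, had the same order. The endothelial total was lowest in knockout replicate 4, at 1545 against 2967 to 5627 in the other arrays, and so was that of pericytes and smooth muscle, at 6403 against 8928 to 10965. Their medians were -0.57 and -0.62, and that of root and outer sulcus cells was -0.82. No signal in the table was 0. The part of these cell types in the Vnn1 difference was not tested.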

How the data were processed

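Total RNA was extracted with a Qiagen kit, labelled with the NuGEN Ovation protocol and hybridised to Affymetrix mouse arrays, per the labels' protocols. The deposited values are linear signal intensity per probe set. The submitters' processing notes name GCOS without a version. Of 45101 probe sets in the table, 64 controls were left out. Trimming 2% from both ends gave every array a mean of about 500, so the arrays had been scaled before deposit. No genome build applies.

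Groups and replicate numbers came from the sample titles, which number the samples in 1 series over both genotypes. Signals were transformed as log2(signal + 16), and probe sets with a mean signal under the 40th percentile (46.3) were removed, which left 27022. The test was two-sided, by limma 3.58.1 (lmFit and eBayes, variance trend on) under R 4.3.3. Adjusted p-values are Benjamini-Hochberg over all tested probe sets, at a threshold of 0.05. The fit was tested on simulated data. Symbols came from the platform annotation, which gave 34945 probe sets 1 symbol, 932 several and 9160 none. The gene identifiers of all 9 members matched RefSeq. For lists and for counts by gene, the brightest tested probe set stood for a gene.

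Named were all members, Slc26a4, the 3 genes with the smallest p in each related list and the 6 genes most like Vnn1. Members, lists and tests were chosen with earlier results of these data known. Other list members and the neighbours of Vnn1 were named after their values were seen. Alternatives were other offsets, normalisations, filters and variance models, array weights, 1 probe set per gene, and leaving out each array. Figures were drawn with matplotlib 3.10.9.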

Additional observations from a re-analysis of the deposited data

How the results depend on the processing

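No alternative called a member other than Vnn1: over 275 refits of their probe sets the limma adjusted p lay between 0.148 and 0.998, 249 kept their direction and 26 turned. Slc26a4 kept its direction in all 17 alternatives (-2.23 to -1.02). Vnn1 lay between 1.90 and 2.65, which is a description, since it was chosen for being higher in all knockout arrays. The number of probe sets called, 1 as reported, was 3 with quantile normalisation, 2 with cyclic loess, 3 with median centring, 0 with no filter, 0 with the 60th percentile filter, 23 with array weights and 11 with 1 probe set per gene. Leaving out 1 array gave between 0 and 13, the highest without knockout replicate 4.

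Median centring moved the median of all tested probe sets to -0.20, and negative differences from 50.5% to 74.4%. Differences below are to be read against that shift. With it, the list medians were -0.38 for coenzyme A transport and turnover, -0.43 for cysteine supply and taurine synthesis, -0.32 for glutathione, -0.28 for PPAR alpha targets and -0.21 for the nitrilase fold relatives. The first of these was 0.03 with array weights and between -0.23 and 0.05 when an array was left out.

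Turned directions, none past the threshold, were as follows. With median centring, Pank1 1431028_a_at gave -0.01, the Pank2 probe sets -0.16, -0.19 and -0.18, Ppcdc 1424335_at -0.02 and Ado 1438484_at -0.16. With quantile normalisation Pank2 1458358_at gave -0.18 and Ado 1438484_at -0.13, with cyclic loess -0.10 and -0.12. Array weights gave -0.06 for Pank2 1452733_at and 0.03 for Nit1. Nit2 gave -0.09 with quantile normalisation, -0.00 with cyclic loess and -0.16 with median centring, and Btd 0.03 with cyclic loess. With an array left out, ranges that crossed 0 were -0.27 to 0.10 for Pank1 1457110_at, -0.02 to 0.14, -0.09 to 0.11 and -0.05 to 0.18 for Pank2, -0.04 to 0.45 for Ppcdc 1424335_at -0.14 to 0.23 for Ado 1438484_at, -0.26 to 0.25 for Nit2 and -0.05 to 0.03 for Btd. The causes were not tested. No paired analysis was run, because the labels do not say whether heterozygous and knockout arrays were matched.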

Other observations

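A probe set annotated to both Ppcs and Gm8465, 1417473_a_at, was not counted as a member because its symbol is not Ppcs alone. Mean signals were 407.8 ± 49.9 in the heterozygous and 349.9 ± 88.2 in the knockout group (SD, n = 3 each). The difference was -0.24 on the log2 scale (limma adjusted p = 0.732). The groups overlapped, and knockout replicate 4 was again the lowest array (251.2), as on the Ppcs probe set.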
